A study of Mus musculus with 6 samples.

Results

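Expression of 6 autosomal genes, Tmem200b, Prkar1b, Aebp1, Myoc, Rbm24 and Abca8b, was examined in the colon of mice lacking NSD2 in the intestinal epithelium. The 6 genes were selected on their measured values: each had a rise in the knockout libraries that was large beside the spread between replicates of the same libraries. They are 6 of the 24517 genes with reads in some library and 6 of the 16347 genes tested. Their difference between the groups is therefore given as a description and without a test. Each was followed against Myh11, Uchl1 and Adipoq, which mark smooth muscle, neurons and fat.

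The RNA was from colon of control mice (Nsd2fl/fl, floxed alleles without deletion) and knockout mice (Nsd2ΔIE), with 3 libraries per group. In the knockouts the same alleles are deleted by a Cre driven by the Villin promoter, which is active in intestinal epithelium. Both groups ate a diet rich in fat and cholesterol (HFCD), and the labels give its length as 16 weeks, whereas the methods state a longer feeding. The methods describe male littermates that were young adults when the diet began, and the labels give no age. The strain was C57BL/6J. Activity of the Cre in muscle, nerve or fat cells was not measured here, and colon tissue can hold all of them. In this bulk RNA, a change in the number of cells of a type and a change in RNA per cell cannot be told apart.

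The 6 genes do different work. Prkar1b encodes a regulatory subunit of protein kinase A (PKA) found mainly in neurons, which holds the catalytic subunits inactive until cyclic AMP binds. Aebp1 encodes a secreted, collagen-binding protein of connective tissue with a carboxypeptidase-like domain that lacks enzyme activity. Myoc encodes myocilin, a secreted glycoprotein with an olfactomedin domain best known from the outflow tissue of the eye. Rbm24 encodes an RNA-binding protein that directs splicing in heart and skeletal muscle. Abca8b encodes a lipid transporter of the ABCA subfamily, and Tmem200b a membrane protein whose role is little known.

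The libraries held between 38041832 and 38604680 counts, and 3 counts amount to at most 0.0848 CPM. CPM are counts divided by the TMM-scaled library size, so that libraries of different depth can be compared. Nsd2, the targeted gene, had group means of 58.6 ± 10.6 CPM in the controls and 25.01 ± 2.24 CPM in the knockouts (± SD over 3 libraries, as for all means below). Its log2 fold change was -1.23 (SE 0.159, edgeR adjusted p = 0.302). The 5 genes with an adjusted p under 0.05 in edgeR were Xist and 4 Y-linked genes, 0.0306% of the genes tested. Xist was high and the Y-linked genes were low in the Nsd2ΔIE libraries, and the reverse held in the Nsd2fl/fl libraries, which does not match littermates of a single sex. Genotype and sex pattern cannot be told apart in any value below. Libraries of both groups fell on each side of the first principal component (51.03% of the variance), but in unequal numbers. Control replicates 1 and 3 and knockout replicate 1 lay on one side, and control replicate 2 and knockout replicates 2 and 3 on the other. The main fit did not include this split. It was followed below for the selected genes and for Myh11, Uchl1 and Adipoq, and was used in an alternative fit. Nothing in the labels ties a library to a batch.

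The promoter windows of Tmem200b and Myoc are shown because they are the members with the smallest within-group spread of log2 CPM and with the largest fold change, and because they differ in base composition. They are RefSeq sequences on GRCm38.p6, the 250 bases before a start site, 5′ to 3′ on the plus strand. Capitals mark matches to 4 motifs on either strand. The TATA box was searched as TATAAA. The GC box was searched as GGGCGG. The CCAAT box was searched as the letters of its name, and the TEAD motif as GGAATG. None of them overlapped in these windows. The Tmem200b window lies at chr4:131921521-131921770 and uses a start site inside the RefSeq span of the gene. The Myoc window lies at chr1:162638900-162639149.
Tmem200b: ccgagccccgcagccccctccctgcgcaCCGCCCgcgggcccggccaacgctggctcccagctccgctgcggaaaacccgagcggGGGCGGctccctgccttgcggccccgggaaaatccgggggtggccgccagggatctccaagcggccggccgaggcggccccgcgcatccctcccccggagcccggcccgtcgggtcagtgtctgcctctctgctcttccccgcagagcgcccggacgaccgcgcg
Myoc: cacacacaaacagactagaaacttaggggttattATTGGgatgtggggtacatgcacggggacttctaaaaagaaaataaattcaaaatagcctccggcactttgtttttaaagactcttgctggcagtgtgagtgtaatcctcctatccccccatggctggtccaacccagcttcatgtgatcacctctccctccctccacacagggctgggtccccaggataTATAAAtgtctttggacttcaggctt
The Tmem200b window has a GC content of 78.4% and 2 GC boxes, a motif held by 32.7% of 32851 promoter windows of the same length. The Myoc window has a GC content of 46.8% against a median of 52.4% over all windows. It holds a TATA box beginning 26 bases before the start site, a motif present in 12.4% of windows, and a CCAAT box, present in 33.8%. None of the 10 windows of the 6 genes, 5 of them for start sites of Prkar1b, held a CArG box, the sequence bound by serum response factor, which was found in 1.47% of all windows. Further motifs were searched and are not in capitals. The E-box (CANNTG) was in a window of 4 of the 6 genes and in 66.2% of all windows. The core of the cyclic AMP response element (TGACG) was in 3 of the 6 and in 17.8%. A gene was counted with a match in any of its windows, 5 for Prkar1b, whereas the percentages are per window. The first window of Prkar1b held no TGACG. A match is only a description of the letters, and its absence says only that the letters are not in the window.

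Tmem200b lies on chromosome 4 (chr4:131919971-131923956, plus strand). Its read counts were 446, 415 and 416 in controls 1 to 3 and 958, 1016 and 1046 in knockouts 1 to 3. The corresponding levels were 11.6, 11.7 and 11.7 CPM in the controls and 24.2, 25.6 and 25.2 CPM in the knockouts. The control libraries were thus nearly equal, and the lowest knockout library stood 2.06-fold above the highest control library. The group means were 11.7 ± 0.0738 and 25.01 ± 0.754 CPM, a log2 fold change of 1.10 (SE 0.110). The coefficient of variation (CV) was 0.633% in the controls, below the 4.85% that Poisson counting error alone gives at these counts, and 3.02% in the knockouts, where counting error gives 3.15%. Scaled by library totals without TMM factors, the control CV was 4.39%. Only 0.147% of all genes tested had a smaller within-group spread of log2 CPM.

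Prkar1b lies on chromosome 5 (chr5:139017304-139150703, minus strand). Its read counts were 409, 312 and 345 in the controls and 684, 761 and 768 in the knockouts. The levels were 10.6, 8.82 and 9.69 CPM against 17.3, 19.2 and 18.5 CPM. All knockout libraries lay above all control libraries, by 1.62-fold at the nearest pair. The means were 9.71 ± 0.903 and 18.3 ± 0.986 CPM, a log2 fold change of 0.92 (SE 0.137). In GENCODE it shares 341 exon bases (8.95%) with Gm15672 on the same strand, where the gene of origin of a read is uncertain.

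Aebp1 lies on chromosome 11 (chr11:5861866-5872248, plus strand). The controls had 667, 627 and 522 reads and the knockouts 1141, 1350 and 1213, or 17.3, 17.7 and 14.7 CPM against 28.8, 34.1 and 29.2 CPM. The groups did not overlap, and Nsd2ΔIE replicate 2 was the highest library. The means were 16.6 ± 1.66 and 30.7 ± 2.92 CPM, a log2 fold change of 0.89 (SE 0.133).

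Myoc lies on chromosome 1 (chr1:162639150-162649694, plus strand) and was the lowest of the 6 genes. Only 10, 6 and 7 reads were counted in the controls, and 43, 51 and 73 in the knockouts. The levels were 0.260, 0.170 and 0.197 CPM against 1.08, 1.29 and 1.76 CPM. Although the groups did not overlap, the control level rested on 23 reads in all, and counting error alone gives a CV of 36.1% there, more than the 22.2% observed. The means were 0.209 ± 0.0463 and 1.38 ± 0.346 CPM, and the log2 fold change of 2.70 (SE 0.388) was the largest of the 6. Myocos, on the opposite strand, shares 93 of its exon bases (4.48%).

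Rbm24 lies on chromosome 13 (chr13:46418102-46431099, plus strand). The controls had 26, 25 and 29 reads and the knockouts 84, 112 and 134. In CPM these were 0.675, 0.706 and 0.814 against 2.12, 2.83 and 3.23. The controls were close to each other, while the knockouts spread over 1.52-fold, with Nsd2ΔIE replicate 1 lowest. The means were 0.732 ± 0.0730 and 2.73 ± 0.562 CPM, a log2 fold change of 1.89 (SE 0.292).

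Abca8b lies on chromosome 11 (chr11:109932206-109996274, minus strand). Its read counts of 197, 151 and 150 in the controls and 351, 370 and 451 in the knockouts gave 5.12, 4.27 and 4.21 CPM against 8.86, 9.34 and 10.9 CPM. The groups did not overlap. The means were 4.53 ± 0.507 and 9.69 ± 1.05 CPM, a log2 fold change of 1.10 (SE 0.178). The antisense gene Gm11697 shares 241 of its exon bases (3.25%), and the use of strand in the counting is not given in the sources used here.

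**Figure D1:**
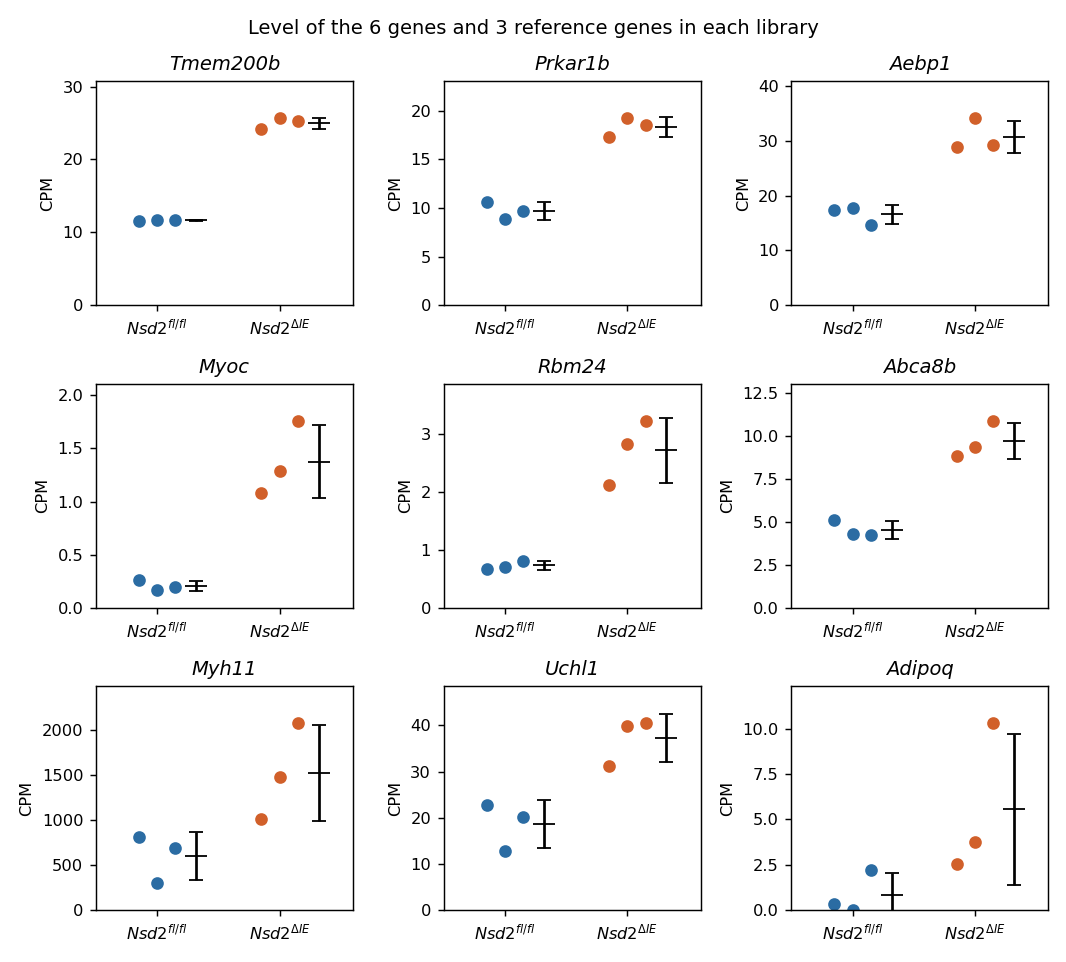
TMM-scaled CPM of the 6 genes and of Myh11, Uchl1 and Adipoq in each library, with the mean and SD of each group of 3 beside the points (points from left to right are replicates 1 to 3, linear axes from 0, the error bar of Adipoq in the controls is cut at 0). No gene of the 6 overlaps between the groups. Relative to the mean (CV), the spread of the 6 is smallest for Tmem200b (means of 11.7 and 25.01 CPM) and largest for Myoc. Myh11 ranged from 301 to 808 CPM within the controls alone.

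Per gene length, in the deposited FPKM, Tmem200b was the most abundant in both groups, at 4.87 ± 0.214 FPKM in the controls and 11.4 ± 0.522 FPKM in the knockouts. Aebp1 and Prkar1b followed at 2.97 ± 0.366 and 2.82 ± 0.400 FPKM in the controls, and their libraries overlapped. Abca8b at 0.544 ± 0.0892 FPKM and Rbm24 at 0.217 ± 0.0175 FPKM came next, and Myoc was last at 0.0967 ± 0.0265 FPKM. The order was the same in the knockouts, where Rbm24 at 0.886 ± 0.203 FPKM and Myoc at 0.695 ± 0.196 FPKM overlapped, as did Aebp1 and Prkar1b. All 6 were genes of modest level: 52.1% of the genes tested had a lower control mean than Tmem200b, and 4.95% a lower one than Myoc.

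The median log2 fold change of the 6 genes was 1.10, beside -0.04 over all genes tested. A nominal threshold, an unadjusted p under 0.05 with a log2 fold change beyond 0.322, follows the cut-offs of the paper. All 6 genes were past it in the direction of a rise, as were 8.05% of all genes tested, and none of the 6 overlapped between the groups, as did not 11.4% of all genes in that direction. Since the genes were chosen by these values, nothing is read from either count. The difference between group means divided by the pooled SD of log2 CPM was 34.7 for Tmem200b, the highest of all genes tested, and between 6.27 (Aebp1, rank 27) and 8.36 (Prkar1b, rank 9) for the other 5. The 6 genes were not the 6 highest in this order: Xist, Rtl6, Lrrn1, Fads6, Cd300lg, Fut10, Brd3os and Dlg4 also stood above Abca8b, which was at rank 13. With library totals alone, the ranks were 2 for Tmem200b, 23 for Prkar1b, 26 for Aebp1, 14 for Myoc, 12 for Rbm24 and 52 for Abca8b.

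**Figure D2:**
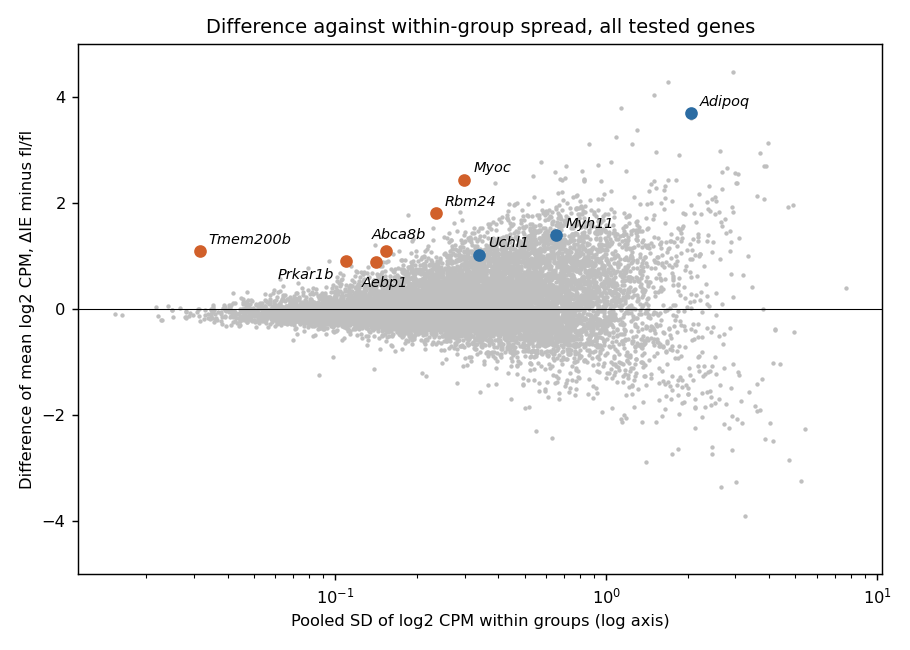
Difference of mean log2 CPM (Nsd2ΔIE minus Nsd2fl/fl) against the pooled within-group SD of log2 CPM on a log axis, for each gene tested (grey; 6 genes beyond 5 on the vertical axis are not drawn), with the 6 genes in orange and the reference genes in blue. Tmem200b stands apart with an SD of 0.0316, whereas Myoc and Rbm24 have an ordinary SD and a large difference.

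The 6 genes were even in different ways. The pooled SD of Tmem200b, Prkar1b and Aebp1 was smaller than that of most genes, with 0.147%, 12.4% and 21.6% of genes below it. For Abca8b this share was 25.2%. Rbm24 and Myoc varied about as much as the typical gene, with 46.0% and 57.9% of genes below them, and stood out by the size of their difference.

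The 3 reference genes were also higher in the Nsd2ΔIE libraries. Myh11, the smooth muscle myosin heavy chain, measured 808, 301 and 686 CPM in the controls and 1006, 1477 and 2068 CPM in the knockouts, with a log2 fold change of 1.34 (SE 0.425, edgeR adjusted p = 0.342). Uchl1, an abundant neuronal deubiquitinase, measured 22.7, 12.9 and 20.3 CPM against 31.2, 39.9 and 40.4 CPM, with a log2 fold change of 1.00 (SE 0.230, edgeR adjusted p = 0.302). For both, the groups did not overlap, and Nsd2fl/fl replicate 2 was the lowest library. Adipoq, the fat cell hormone adiponectin, had 14, 0 and 78 counts in the controls and 102, 150 and 427 counts in the knockouts, with a log2 fold change of 2.70 (SE 1.246, edgeR adjusted p = 0.486). Its groups did not overlap either, with at most 2.19 CPM in the controls and at least 2.57 CPM in the knockouts, and Nsd2fl/fl replicate 2 was again lowest. Adipoq was the least even, with a CV of 138% in the controls and 74.8% in the knockouts.

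Tmem200b, Prkar1b, Aebp1 and Abca8b kept a similar ratio to Uchl1 in both groups. The mean log2 ratio of Tmem200b to Uchl1 was -0.63 ± 0.44 in the controls and -0.56 ± 0.169 in the knockouts, a difference of 0.07. The differences for Abca8b, Prkar1b and Aebp1 were 0.06, -0.11 and -0.14, and the groups overlapped for all 4. Against Myh11 the log2 ratio of the same 4 genes was lower in the knockouts, by values between -0.51 (Aebp1) and -0.30 (Tmem200b), again with overlapping groups.

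Myoc and Rbm24 differed from these 4. The log2 ratio of Myoc to Uchl1 was -6.19, -5.87 and -6.35 in the controls and -4.78, -4.90 and -4.48 in the knockouts, a difference of 1.42 without overlap. Its log2 ratio to Myh11 was -11.3, -10.4 and -11.4 in the controls and -9.79, -10.1 and -10.2 in the knockouts, a difference of 1.04, also without overlap. These ratios rest on the few Myoc reads of the controls and on the prior count. With log2(FPKM + 0.1), the difference from Myh11 was 0.47 and the groups overlapped, while that from Uchl1 was 0.85 and they did not.

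Rbm24 had a log2 ratio to Uchl1 of -4.97, -4.09 and -4.55 in the controls and -3.85, -3.80 and -3.63 in the knockouts, a difference of 0.78 without overlap. Against Myh11 the difference was 0.41 and the groups overlapped. With log2(FPKM + 0.1) the difference from Uchl1 was 0.47, and the groups overlapped.

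Against Adipoq the mean log2 ratio of all 6 genes was lower in the knockouts, by values between -2.80 (Aebp1) and -1.247 (Myoc). The groups overlapped in each case, and Nsd2fl/fl replicate 2 had no Adipoq read, so its ratio depends on the prior count of 2. Against the mean log2 CPM of a list of fat cell genes, the direction was not shared. The difference was 0.38 for Myoc and -0.25 for Rbm24. It was -0.96 for Tmem200b, -0.97 for Abca8b, -1.14 for Prkar1b and -1.17 for Aebp1, and all groups overlapped. These ratios share the values that chose the 6 genes and are given without a test.

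**Figure D3:**
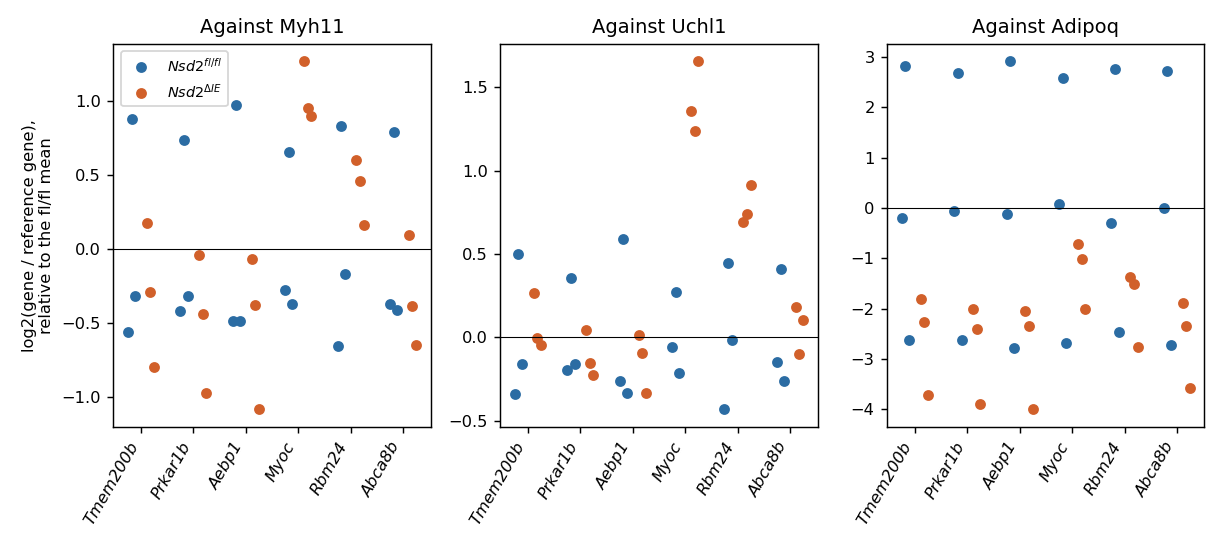
Log2 ratio of each of the 6 genes to Myh11, Uchl1 and Adipoq in each library, relative to the mean of the 3 Nsd2fl/fl libraries (blue, controls; orange, Nsd2ΔIE). Myoc is separated between the groups against Myh11 (difference 1.04) and against Uchl1 (1.42), and Rbm24 against Uchl1 (0.78); the other 4 genes overlap throughout.

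Spread within the groups was compared between the 6 genes and the reference genes. Among the controls, the highest library exceeded the lowest 2.69-fold for Myh11 and 1.77-fold for Uchl1, but 1.01-fold for Tmem200b and between 1.20-fold and 1.21-fold for Prkar1b, Aebp1, Rbm24 and Abca8b, and 1.53-fold for Myoc, whose control counts are few. In Nsd2fl/fl replicate 2, log2 CPM of Myh11 lay at -0.87 and that of Uchl1 at -0.49 from the control mean. In the same library Tmem200b lay at 0.01 and Aebp1 at 0.10 from their control means, while Rbm24 at -0.04, Abca8b at -0.08, Prkar1b at -0.13 and Myoc at -0.22 lay below theirs, as Myh11 and Uchl1 did. Among the knockouts, Myh11 spread over 2.06-fold and Uchl1 over 1.29-fold. Tmem200b, Prkar1b, Aebp1 and Abca8b spread less than Uchl1, from 1.06-fold to 1.23-fold, but Rbm24 (1.52-fold) and Myoc (1.62-fold) spread more. Low spread was part of how the 6 genes were chosen.

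Between the sets on either side of the first principal component, the group difference changed more for the reference genes than for Tmem200b and Aebp1. Low spread was part of how the 6 genes were chosen. A similar difference in both sets therefore follows in part from that choice and is only a description. Between Nsd2ΔIE replicate 1 and Nsd2fl/fl replicates 1 and 3, log2 CPM differed by 0.43 for Myh11 and 0.54 for Uchl1. Between Nsd2ΔIE replicates 2 and 3 and Nsd2fl/fl replicate 2, the differences were 2.54 and 1.64. For Tmem200b the corresponding values were 1.05 and 1.11, and for Aebp1 0.85 and 0.83. Prkar1b gave 0.76 and 1.09, Abca8b 0.92 and 1.23, Rbm24 1.45 and 2.02, and Myoc 2.03 and 2.81, so these 4 were also higher in both sets and more so in the second. In the first set the difference of each of the 6 genes exceeded that of Myh11 and of Uchl1, while Adipoq, at 1.44, lay above Tmem200b, Prkar1b, Aebp1 and Abca8b. In the second it was smaller than that of Myh11 except for Myoc. Each set holds 3 libraries, and these values are without replicate error on one arm.

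**Figure D4:**
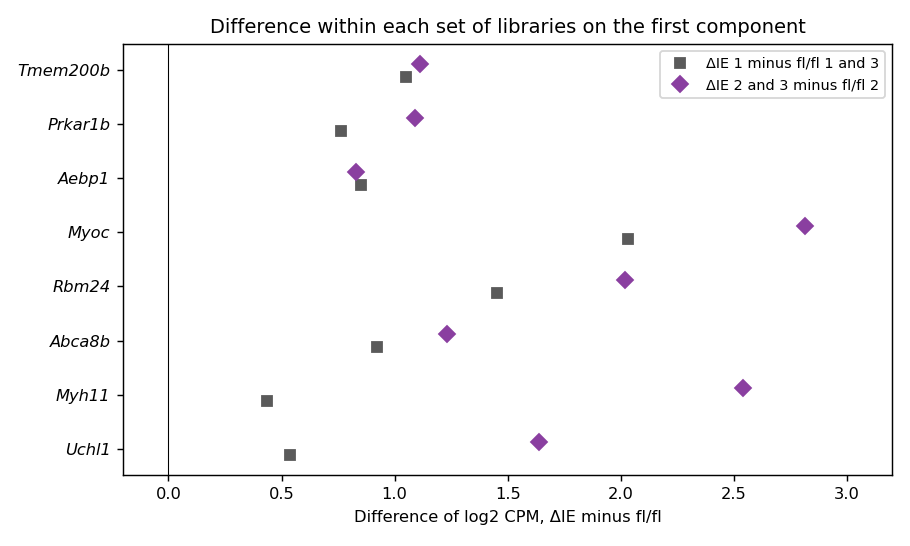
Difference of log2 CPM (Nsd2ΔIE minus Nsd2fl/fl) within each of the 2 sets of libraries on either side of the first principal component (squares, Nsd2ΔIE replicate 1 against Nsd2fl/fl replicates 1 and 3; diamonds, Nsd2ΔIE replicates 2 and 3 against Nsd2fl/fl replicate 2). Tmem200b and Aebp1 have nearly the same difference in both sets, which follows in part from their choice by low spread. Myh11 goes from 0.43 to 2.54. Adipoq is left out because Nsd2fl/fl replicate 2, the only control of the second set, had no read.

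Lists of cell type markers moved with the 6 genes. Past the nominal threshold, 17 of 20 smooth muscle genes and 14 of 18 enteric neuron genes were higher and none was lower. Over all genes tested, 8.05% were higher and 2.21% lower. The median log2 fold changes of these lists were 1.20 and 0.95 beside -0.04 over all genes. For glia and Schwann cells 6 of 10 genes were higher and none was lower (median 1.04), for fibroblasts 6 of 12 (median 0.47), and for fat 5 of 11 (median 1.64). None of these genes had an adjusted p under 0.05 in edgeR, with a smallest adjusted p of 0.302. DESeq2 gave an adjusted p under 0.05 for 466 genes in all, among them 7 smooth muscle, 6 neuron, 4 glial, 4 fibroblast and 3 fat genes. The smooth muscle count was 11, 10 and 5 without Nsd2fl/fl replicate 1, Nsd2ΔIE replicate 2 and Nsd2ΔIE replicate 3. The neuron count was 8 when either control 3 or knockout 2 was left out, and 16 without control 1 or control 2. The fat count was 3 when control 1 and 2 when knockout 3 was left out, and 7 without control 2 or knockout 1. Such counts thus moved both ways and rest on fewer libraries. The log2 fold changes of Myh11 and Uchl1 stayed above 0, at 1.02 to 1.62 and 0.79 to 1.16 when each library was left out.

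The summed level of the smooth muscle list ranged from 2501 to 6009 CPM in the controls and from 7313 to 15558 CPM in the knockouts. For neurons the ranges were 161 to 256 and 322 to 396 CPM, and for fibroblasts 1399 to 1844 and 2007 to 2229 CPM, so these groups did not overlap. The glial sum (211 to 699 against 321 to 440 CPM) and the fat sum (176 to 318 against 285 to 392 CPM) did overlap. The most abundant gene weighed heavily on both, Erbb3 with 181 to 677 CPM and Pck1 with 83.6 to 235 CPM in the controls. Averaged as log2 CPM, so that each gene counts equally, the lists did not overlap, at 1.28 to 1.88 against 2.08 to 2.76 for glia and 0.93 to 2.39 against 2.97 to 4.39 for fat. Every listed smooth muscle, neuron, glial and fibroblast gene had reads in each library, while 4 of 12 fat genes (Adipoq, Plin1, Lep and Retn) were at 0 counts in at least 1 library. The part of these cell types in the rises of the 6 genes was not tested.

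Other lists moved less. Of the 12 epithelial genes none was past the threshold (median -0.27), and their sum ranged from 13688 to 22620 CPM in the controls and from 13259 to 15079 CPM in the knockouts, so epithelial genes were abundant in every library. None of 4 mesothelial genes (median -0.64), 1 of 7 endothelial genes, Tie1 (median 0.11), and 2 of 5 genes of interstitial cells of Cajal, Etv1 and Prkcq (median 0.14), were higher. Of 6 skeletal muscle genes tested only Ckm was, and the myosins Myh1 and Myh2 and the calcium pump Atp2a1 were at 0 counts in some libraries. Leaving out a library changed each of these 5 counts by at most 1. No gene of these lists was past the threshold downwards, where 2.21% of all genes tested were, and 8.05% were past it upwards.

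**Figure D5:**
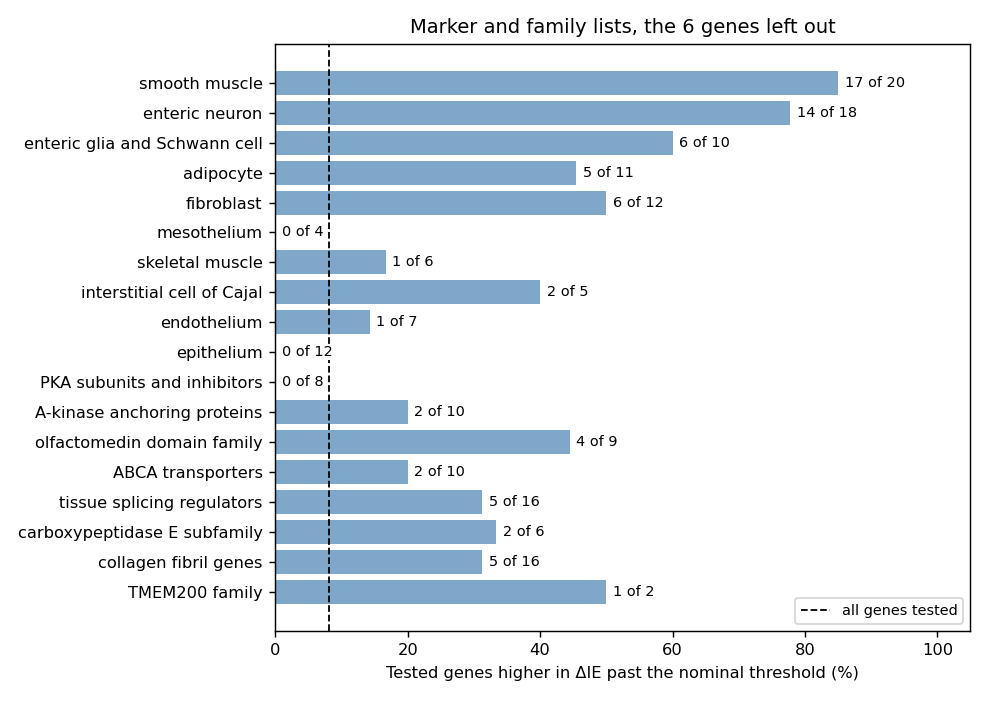
Percentage of tested genes in each marker and family list that were higher in Nsd2ΔIE past the nominal threshold, with the 6 genes left out; counts stand beside the bars and the dashed line is the 8.05% of all genes tested. The smooth muscle (17 of 20) and enteric neuron (14 of 18) lists have the longest bars, and mesothelium, epithelium and the PKA subunits and inhibitors have none.

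The families of the 6 genes were then examined, again with the member left out. For Prkar1b, none of the 8 other PKA subunits and inhibitors was past the threshold (1 was without Nsd2fl/fl replicate 2 or Nsd2ΔIE replicate 1), and their log2 fold changes lay between -0.22 and 0.49. Prkar1a, the broadly expressed counterpart of Prkar1b, measured 198 ± 14.5 and 204 ± 8.84 CPM, a log2 fold change of 0.04 (SE 0.113, edgeR adjusted p = 0.912) that changed sign when Nsd2fl/fl replicate 1 was left out (-0.00441). Of 10 A-kinase anchoring proteins, which tether PKA, 2 were higher past the nominal threshold, beside 8.05% of all genes. Akap6 rose from 4.10 ± 2.24 to 10.8 ± 2.37 CPM and Akap12 from 23.3 ± 4.02 to 37.9 ± 3.46 CPM (adjusted p = 0.313 and 0.302 in edgeR).

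For Abca8b, 2 of 10 other ABCA transporters were higher and none was lower, beside 8.05% of all genes higher. Leaving out control 1 gave 4 such genes, leaving out control 2 gave 3, and leaving out any knockout gave 1. Abca8a, which lies 29360 bases from Abca8b on the side of higher coordinates, measured 23.2, 16.7 and 13.7 CPM in the controls and 35.04, 40.1 and 38.5 CPM in the knockouts. Its log2 fold change of 1.08 (SE 0.202, edgeR adjusted p = 0.302) was close to the 1.10 of Abca8b. Both genes are close paralogs, and reads that fit either could have been split or discarded in the counting. Abca6, of the same cluster, had a log2 fold change of 1.42 (SE 0.532, edgeR adjusted p = 0.409). Abca9 and Abca5, of the same cluster, were not past the threshold, with log2 fold changes of 0.43 (SE 0.183) and 0.67 (SE 0.346).

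For Myoc, 4 of 9 other genes with an olfactomedin domain were higher past the threshold and none was lower, beside 8.05% of all genes higher. The 4 were Olfm1, a secreted protein of neurons, Olfml1, Olfml2b and the adhesion receptor Adgrl1. Their log2 fold changes were 1.04 (SE 0.198), 1.03 (SE 0.249), 0.45 (SE 0.119) and 0.53 (SE 0.122), all below the 2.70 of Myoc, with adjusted p between 0.302 and 0.309 in edgeR.

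For Rbm24, 5 of 16 tissue splicing regulators were higher and Esrp2, which acts in epithelium, was lower (log2 fold change -0.40, SE 0.152), beside 8.05% of all genes higher. Leaving out control 2 gave 3 such genes, and leaving out control 3, knockout 2 or knockout 3 gave 2. Rbfox3, the neuronal protein known as NeuN, had 19, 1 and 6 counts in the controls and 24, 44 and 51 in the knockouts, a log2 fold change of 2.06 (SE 0.800). The neuronal regulators Nova1 and Ptbp2 had values of 1.15 (SE 0.305) and 0.65 (SE 0.171), and Qk and Rbfox2 of 0.46 (SE 0.183) and 0.40 (SE 0.151). Rbm38, the nearest paralog of Rbm24, was not past the threshold, with 14.02 ± 2.41 and 19.5 ± 4.97 CPM and a log2 fold change of 0.48 (SE 0.225). The adjusted p in edgeR was at least 0.309 for each gene of this list.

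For Aebp1, the carboxypeptidase E subfamily held 2 higher genes of 6 and 1 lower gene. Over all genes tested, 8.05% were higher and 2.21% lower, which is the background for each list of this paragraph. The higher count of the carboxypeptidase E subfamily was 1 when any of the Nsd2ΔIE replicates was left out. Cpe, which trims peptide hormones in neurons and endocrine cells, rose from 88.6 ± 22.3 to 191 ± 38.3 CPM past the nominal threshold. Cpxm2, like Aebp1 an inactive member, had a log2 fold change of 0.43 (SE 0.181), Cpd of -0.44 (SE 0.170), and Cpxm1, not past the threshold, of 0.62 (SE 0.569). Of 16 genes of collagen fibrils and their assembly, 5 were higher (Dcn, Lum, Tnxb, Pcolce and Postn) and Lox, which crosslinks collagen, was lower. The median of the list was -0.01. The 5 became 2 without Nsd2fl/fl replicate 2 or Nsd2ΔIE replicate 2, and 3 without replicate 3 of either group. The proteoglycan Lum had the largest value, 1.08 (SE 0.244), and Dcn and Lum are also on the fibroblast list. For Tmem200b, Tmem200c was past the threshold on few reads (log2 fold change 1.40, SE 0.544) and Tmem200a was not (0.26, SE 0.352). Tmem200c had 13, 11 and 6 reads in the controls and 13, 34 and 41 in the knockouts, so the groups overlapped. Its call was lost when any library but Nsd2ΔIE replicate 1 was left out, and with limma-voom, log2(FPKM + 1), the replicate block and the principal component split. None of the genes of these families had an adjusted p under 0.05 in edgeR. In DESeq2, 466 genes did in all. Among them were 4 olfactomedin domain genes, 2 each of the anchoring proteins, the splicing regulators and the collagen fibril genes, and 1 each of the ABCA transporters and the carboxypeptidase E subfamily.

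The genes around the 6 were compared for a regional rise. Tested genes that overlap a member in RefSeq, and the nearest tested gene on each side, were taken, 16 in all. Untested genes were skipped, so these genes need not adjoin a member and lay up to 451594 bases away. Of the 16, 3 had a log2 fold change near 1 and were past the nominal threshold, as were 8.05% of all genes upwards. They were Abca8a, 29360 bases from Abca8b, Cap2, 70804 bases from Rbm24, and Oprd1, the delta opioid receptor, 186232 bases from Tmem200b. Cap2 had a value of 1.08 (SE 0.330, edgeR adjusted p = 0.328) and Oprd1 of 0.93 (SE 0.354, edgeR adjusted p = 0.414). The other 13 lay between -0.52 and 0.15, none past the threshold. They include Gm12992 and Epb41, whose spans overlap Tmem200b, Dnaaf5, which overlaps Prkar1b, and Pold2, which overlaps Aebp1.

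The genes most like each member were sought among tested genes with a mean log2 CPM of at least 1, by the root mean square (RMS) difference of log2 CPM over the 6 libraries after centring each gene. Prkar1b was followed most closely, by C1qtnf12 (RMS 0.0471) and by Dlg4, which encodes the postsynaptic scaffold PSD-95 (RMS 0.0585). The kainate receptor gene Grik3 was among the genes most like Abca8b (RMS 0.0767), as was Magee1 (RMS 0.101), and Grik3 was also the third for Tmem200b (RMS 0.137). Fut10 and Rragd came first for Tmem200b (RMS 0.102 and 0.107), and Fut10 was the third for Prkar1b (RMS 0.0761). Aebp1 was followed by C1qtnf9, Pcdhb17 and Cib2 (RMS between 0.0907 and 0.108). RMS grows with the size of a difference. For Rbm24 and Myoc, which differed most between the groups, the nearest genes were farther away by this measure. Both lie below the mean log2 CPM of 1, so genes of their level were not compared. Counting error in the controls gives a CV of 36.1% for Myoc and 19.4% for Rbm24. The part of each of these in the distances was not tested. Gm11816, Chn1 and the neurokinin receptor gene Tacr2 followed Rbm24 with RMS values between 0.266 and 0.279, and Epha7, Gm11816 and Slc8a3 followed Myoc with values between 0.377 and 0.409. Pearson's r over the same 6 libraries ignores the size of a difference and follows the separation of the groups. By this measure Xist, which differs with the sex pattern of the libraries, was nearest to Tmem200b (r = 0.995). C1qtnf12 was nearest to Prkar1b (r = 0.995) and Lepr to Aebp1 (r = 0.990). Abhd8 was nearest to Rbm24 (r = 0.999) and Gpx8 to Myoc (r = 0.999), and Gpx8 was also nearest to Abca8b (r = 0.997). Both measures include the group difference by which the 6 genes were chosen.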

How the data were processed

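RNA was extracted from colon with TRIzol. The authors deposited, per library and gene symbol, whole-number read counts and FPKM values. The submitters' processing notes name fastp, HISAT2, HTSeq, R 3.2.0 and mm10, without their settings. The annotation and the use of strand are not given in the sources used here. The lengths implied by the deposited counts and FPKM show that FPKM came from the same counts and library totals.

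Counts were tested with edgeR 4.0.16 in R 4.3.3 (filterByExpr, TMM, quasi-likelihood test, two-sided, Benjamini-Hochberg over 16347 genes), with Nsd2ΔIE against Nsd2fl/fl and no covariate. Fold changes are from this fit. Spread and ratios used log2 CPM with a prior count of 2. Intervals of counting cover counting error only. The labels do not say that replicates are separate animals beyond their numbers, so p-values set the group difference against the spread between these libraries. No pair of libraries agreed within sampling noise (chi-square per degree of freedom at least 35.46). The fit was tested on simulated counts of 16082 genes, where 4-fold changes were found in 79 of 100 genes and 2-fold changes in 22 of 100, with 7 false calls.

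The 6 genes and all lists were chosen with earlier results of these data known. Named genes are the 6, Myh11, Uchl1, Adipoq, Nsd2, genes of the lists, the nearest tested and the overlapping genes, and per member the 3 genes most like it. The values of 1 such gene are not reported here. Of the family lists, the genes past the nominal threshold and close paralogs are given with values and the rest by counts, a choice made after their values were seen. Alternatives were RLE, upper-quartile and total scaling, no filter, DESeq2 1.42.0, limma-voom (limma 3.58.1), log2(FPKM + 1) and log2(FPKM + 0.1), a replicate block, the principal component split and leaving out each library. Positions are from RefSeq on GRCm38.p6, the assembly that mm10 names, and exon overlaps from GENCODE.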

Additional observations from a re-analysis of the deposited data

How the results depend on the processing

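The log2 fold changes of the 6 genes kept their sign under all 16 alternatives. They ranged from 1.07 to 1.23 for Tmem200b, 0.83 to 1.04 for Prkar1b, 0.81 to 1.01 for Aebp1, 0.62 to 2.89 for Myoc, 0.63 to 2.05 for Rbm24 and 0.55 to 1.22 for Abca8b. The lowest values of the last 3 came with log2(FPKM + 1), whose pseudocount exceeds their control levels. The median of the 6 was 1.22 with library totals alone and 0.723 with log2(FPKM + 1). Relative to the main scaling, the median of all genes moved by 0.127 with library totals, 0.102 with log2(FPKM + 1) and 0.135 with log2(FPKM + 0.1). Of the calls, 78.5% were rises in the main analysis, 88.7% with upper-quartile factors, 92.4% with library totals, 92.8% and 93.1% with FPKM.

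DESeq2 gave 466 genes with an adjusted p under 0.05 against 5 in edgeR, and the cause was not tested. The number of genes lower past the nominal threshold, 361, became 200 with upper-quartile factors, 142 with library totals, 607 without the filter, 108 and 138 with log2(FPKM + 1) and log2(FPKM + 0.1), 602 with the replicate block and 543 with the principal component split. With a library left out, it ranged from 146 to 747, the higher genes from 675 to 1720 (main 1316), the list genes higher from 42 to 71 (main 71), the genes without overlap and higher from 2112 to 3123 (main 1860) and the genes past the adjusted threshold from 3 to 5. These ranges come with fewer samples. Prkar1a, at 0.04, turned to -0.00441 without Nsd2fl/fl replicate 1 and was at most 0.105 with another library left out. Among genes given only by range, 7 of 13 neighbours and 15 of 47 family genes had the other sign under some alternative.

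Replicate numbers were not used as pairs in the main fit. Deviations from the group means correlated at 0.501, 0.643 and -0.166 for numbers 1 to 3, and whether the numbers mark pairs was not tested. The block called 1462 genes higher. Depth limits Myoc, Rbm24 and Adipoq, whose control counts are low.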
